A study of Homo sapiens with 6 samples.

Results

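The contacts described here are the putative cis-regulatory elements (pCREs) that 4C-seq from the TBXT promoter placed across PRR18, SFT2D1 and MPC1 on chromosome 6. The distinct regions listed for H460, H358 and A549 cells were pooled, and those with a midpoint from chr6:166305300-166409363 (hg38), up to the 3′ end of RPS6KA2, were kept. This gave 175 of the 1201 regions in the pooled lists (14.6%). The window of 104.1 kb began 136.1 kb and ended 240.2 kb from the viewpoint, on the side upstream of TBXT. The study asked which contacts of the TBXT promoter differ between lung cancer cells that express TBXT and those that do not. H460, a line from a large cell lung carcinoma, expresses TBXT, and the adenocarcinoma lines H358 and A549 do not. All were untreated established lines, H460 and H358 grown in RPMI medium and A549 in DMEM, with serum in both media, so A549 also differed from the other lines in its medium. Each line had 2 replicate libraries (6 in all), which the authors reduced to 1 list per line of regions called in both. The lists hold no read counts, so the depth is unknown, the spread between replicates cannot be given, and no difference between lines could be tested. The study's text gives the total numbers for H358 and A549 the other way round from the deposited lists. The lines are named here as the files name them, and gained, lost and shared do not depend on which of these lists is which.

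In 4C-seq, crosslinked chromatin is cut and ligated, and the fragments joined to a chosen viewpoint are amplified and sequenced, so that DNA held close to the viewpoint in the nucleus gives more reads. Most contacts lie near the viewpoint and fall off with distance, and a peak caller picks fragments above that decline. TBXT encodes brachyury, a T-box transcription factor of the early embryo that is silent in most adult tissues and is expressed again in some carcinomas. MPC1 encodes a subunit of the mitochondrial pyruvate carrier, which brings pyruvate into mitochondria for oxidation. SFT2D1 encodes a membrane protein related to yeast Sft2, which acts in transport vesicles of the Golgi, and PRR18 encodes a proline-rich protein. MPC1-DT is a long non-coding RNA transcribed divergently from the MPC1 promoter.

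The promoters of the 3 protein-coding genes differed in how they were listed, and their sequences are shown for that reason, with CpG dinucleotides in capitals. Each is read 5′ to 3′ on the minus strand, the strand of all 3 genes, and lies upstream of the annotated transcripts of its gene. The SFT2D1 stretch also overlaps exon 1 of ENSG00000286760, a lncRNA on the plus strand. The stretch upstream of PRR18 (chr6:166308449-166308638, hg38) lay in regions listed in H460 and H358, the part nearest the gene also in A549. The stretch upstream of SFT2D1 (chr6:166342577-166342766) was in no list, and that upstream of MPC1 (chr6:166383014-166383188) was in every list.
PRR18 upstream: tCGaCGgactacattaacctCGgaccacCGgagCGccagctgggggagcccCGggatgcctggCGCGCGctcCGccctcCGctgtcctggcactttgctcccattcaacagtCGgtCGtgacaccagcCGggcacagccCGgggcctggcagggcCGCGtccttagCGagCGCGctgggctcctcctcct
SFT2D1 upstream: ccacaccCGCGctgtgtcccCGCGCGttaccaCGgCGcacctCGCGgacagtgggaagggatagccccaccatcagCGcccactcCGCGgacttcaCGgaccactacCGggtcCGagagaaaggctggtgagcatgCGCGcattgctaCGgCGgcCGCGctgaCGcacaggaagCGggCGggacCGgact
MPC1 upstream: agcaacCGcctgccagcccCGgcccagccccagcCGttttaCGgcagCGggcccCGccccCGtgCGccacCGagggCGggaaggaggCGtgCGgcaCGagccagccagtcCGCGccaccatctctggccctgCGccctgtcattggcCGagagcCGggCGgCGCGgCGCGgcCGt
All were rich in G and C, at 70.5%, 69.5% and 77.7% in that order, and held 20, 25 and 24 CpG. The observed over expected ratio of CpG was 0.856 for PRR18, 1.09 for SFT2D1 and 0.915 for MPC1, so the unlisted promoter had the highest of these ratios.

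The only 3 pCREs of the window that were listed in H460 alone lay near each other in intron 1 of SFT2D1. The nearest to the viewpoint and the farthest (chr6:166336857-166336878 and chr6:166337533-166337676) are shown on the plus strand, with the NlaIII site that each surrounds in capitals.
near gained region: actgCATGtggcctggggcctc
far gained region: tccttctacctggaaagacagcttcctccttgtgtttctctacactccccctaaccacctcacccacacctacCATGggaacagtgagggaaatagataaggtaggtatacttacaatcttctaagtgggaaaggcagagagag
They were 22 and 144 bp long and held no CpG. H358 also listed 2 regions between them, and the far one lay at the end of the H460 stretch. Of the 3 regions in H460 alone, only 1 adjoined a fragment of 40 bp or more that held a site of DpnII, the second enzyme.

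Within the window 141 of the 175 pCREs were listed in H460, 154 in H358 and 114 in A549. The map of pCREs by line shows that they fell into 4 blocks of touching regions with long empty stretches between them. All 3 lines were present in the blocks at PRR18, SFT2D1 and MPC1, and the fourth block, in intergenic DNA, was listed in H460 and A549 and was absent from the H358 list. A region in these lists is 1 NlaIII site with the DNA up to the middle of each adjoining fragment, and all 1201 listed regions matched such a site region of hg38. Of the 483 site regions in the window, 29.2% were listed in H460 (95% Wilson interval 25.3 to 33.4), 31.9% in H358 (27.9 to 36.2) and 23.6% in A549 (20.0 to 27.6). Over the 9783 site regions within 1 Mb of the viewpoint the shares were 7.77% in H460, 7.45% in H358 and 7.76% in A549. Nearer the viewpoint, between it and the window, they were 39.5%, 37.2% and 36.9% of 683 site regions, and across RPS6KA2, beyond the window, 3.45%, 5.57% and 2.36% of 2495. The intervals cover counting error only and treat neighbouring regions as independent, which they were not: the authors' running mean over 30 fragments spanned a median of 6.2 kb here.

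**Figure D1:**
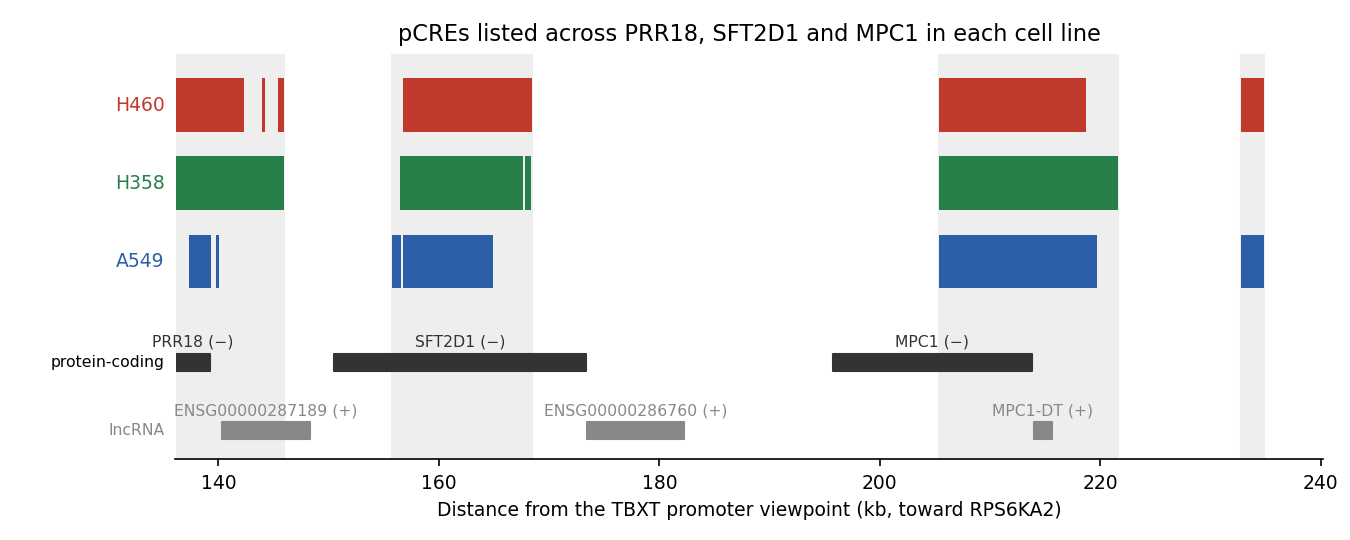
Listed pCREs of H460, H358 and A549 (coloured bars, 1 row per line) against distance from the viewpoint in kb, with protein-coding genes and lncRNAs below (strand in brackets) and the 4 pooled blocks in grey. The MPC1 block starts at the same place in all lines, A549 holds little of the PRR18 block, and H358 is absent from the intergenic block.

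By class, 3 pCREs were gained (H460 alone, 1.71%, 0.585 to 4.92), 34 were lost (H358 or A549 or both, without H460, 19.4%, 14.2 to 25.9) and 138 were shared (H460 with at least 1 other line, 78.9%, 72.2 to 84.3). Over the whole series 14.0% of the 1201 regions were gained, 36.7% lost and 49.3% shared. Between the viewpoint and the window 5.90% of 322 regions were gained and 78.0% shared, and across RPS6KA2 29.3% of 232 were gained and 7.76% shared. The shared fraction in the window was thus close to that on the viewpoint side and far from that of RPS6KA2, which was measured in the same lists and was not tested. The number of gained pCREs rose when either comparison list was left out. Its low share against the series rested mainly on the H358 list, which was not tested. The regions added without H358, those in H460 and H358, were 21.1% of the window and 8.49% of the series. The regions added without A549, those in H460 and A549, were 14 of 175 in the window and 7.49% of the series. Without the H358 list 40 of the 154 regions in H460 or A549 would be in H460 alone. Over the series these would be the 168 in H460 alone and the 102 in H460 and H358, of 1029. Without the A549 list they would be 17 of the 171 in H460 or H358. Over the series they would be the 168 in H460 alone and the 90 in H460 and A549, of 987. None was left in the window when a region within 500 bp in another list counted as held.

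By the exact set of lines, 87 pCREs (49.7%, 42.4 to 57.0) were in all 3 lists, against 33.3% over the series. H460 and H358 without A549 held 37, H358 alone 21, H460 and A549 14, H358 and A549 9, A549 alone 4 and H460 alone 3. Over the series the shares of these sets were 8.49%, 14.3%, 7.49%, 4.58%, 17.8% and 14.0%, in that order. In the window H460 with H358 was higher, at 21.1%, and A549 alone (2.29%) and H460 alone (1.71%) were lower. The other sets were nearer to their series shares, and none of these differences was tested. H460 and H358 had 124 regions in common, which were 87.9% of the H460 regions and 80.5% of the H358 regions. H460 and A549 had 101 in common (71.6% of H460, 88.6% of A549), and H358 and A549 had 96 (62.3% of H358, 84.2% of A549). The same order held over the whole series, with 502 regions in H460 and H358, 490 in H460 and A549 and 455 in H358 and A549. In base pairs, H460 covered 34134 bp of the window, H358 37757 bp and A549 27652 bp, and the union covered 40917 bp, which was 39.3% of it.

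**Figure D2:**
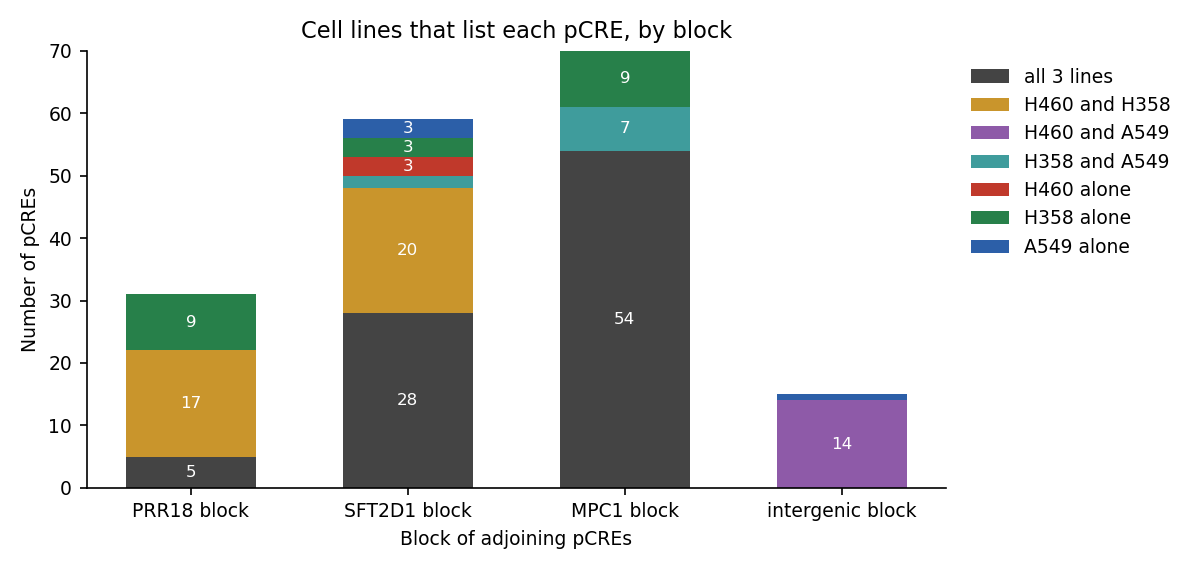
Number of pCREs (y axis) in each of the 4 blocks (x axis), coloured by the lines that list them. All 54 H460 regions of the MPC1 block are in all 3 lists, the PRR18 block is mostly H460 with H358, and the intergenic block is H460 with A549 for 14 of 15 regions.

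The PRR18 block (chr6:166305313-166315181, 9.9 kb) held 31 pCREs, and it was the block where A549 was lowest. H358 listed all 31, H460 22 (71.0%) and A549 5 (16.1%). The 5 A549 regions were in all 3 lists, 17 were in H460 and H358, and 9 were in H358 alone. PRR18 is a single-exon gene. Its 3149 bp were covered whole in H460 and H358, and for 61.5% in A549, where the part at the 5′ end was held. The region over its start (chr6:166307541-166308497, 139.2 kb from the viewpoint) was in all 3 lists, and it was the longest member at 957 bp, with 77.1% G and C and 112 CpG. Of the 5 regions in the gene, that one had its midpoint in coding sequence and the others in untranslated sequence.

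Beyond the PRR18 start the block ran into ENSG00000287189, a lncRNA on the opposite strand. H358 covered 70.6% of this gene, H460 35.3% and A549 none of it. The start of the lncRNA lay in a region of H460 and H358 (chr6:166309414-166309945), 0.2 kb from the nearest A549 region. In H460 the stretch over PRR18 ended at position 166311527, 142.3 kb from the viewpoint. A single region at chr6:166313174-166313400 and 3 regions at chr6:166314597-166315181 followed. H358 listed the sites between these H460 pieces too, which gave lost stretches of 5 regions (chr6:166311528-166313173, 1646 bp) and 4 regions (chr6:166313401-166314596, 1196 bp), both in introns of the lncRNA. On the other side the contacts did not begin at PRR18. The H460 stretch started at position 166300867 and held 38 regions, 18 of them in the window, and the H358 stretch started at 166301766 and held 47, of which 31 were in the window. The first region inside the window (chr6:166305313-166305921) and the last outside it (chr6:166305089-166305312) were both in H460 and H358, with midpoints 0.32 kb and 0.10 kb from the boundary.

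The SFT2D1 block (chr6:166324944-166337676, 12.7 kb) held 59 pCREs and lay whole inside the gene. H358 listed 53 of them, H460 51 and A549 33. Of these, 28 were in all 3 lists, 20 in H460 and H358, 3 in H460 alone, 3 in H358 alone, 3 in A549 alone and 2 in H358 and A549. The order of the lines differed along the block. At the end toward the viewpoint A549 began first, at position 166324944, followed by H358 at 166325692 and H460 at 166325954. At the far end A549 stopped first, at 166334082, while H358 went on to 166337532 and H460 to 166337676. A549 thus lacked the far 3.6 kb of the H460 stretch, and H460 lacked the near 1.0 kb of the A549 stretch. The regions of H460 and H358 without A549 included all 5 with a midpoint in HNRNPA1P49, a processed pseudogene within the SFT2D1 intron.

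Exons 2 to 5 of the 8 exons of SFT2D1 lay whole within regions of all 3 lines, and the other exons were in no list. Only 1 member had its midpoint in coding sequence of SFT2D1 (chr6:166328150-166328443, over exon 4, in all 3 lists). By intron, intron 1 held 37 members, with 37 in H460, 34 in H358 and 14 in A549, and it held the 3 gained regions. Introns 2, 3 and 4 held 1, 5 and 6 members, and each of these was in all 3 lists. Intron 5 held 9 members, with 8 of them lost: H460 listed 1 there, H358 6 and A549 6. The canonical start of SFT2D1 (position 166342545, 173.3 kb) was in no list. The nearest H460 region was 4.9 kb away, the nearest H358 region 5.0 kb and the nearest A549 region 8.5 kb. The start of ENSG00000286760, a lncRNA that leaves the same promoter on the other strand, was in no list either, and no part of that gene was covered. Shorter annotated transcripts of SFT2D1 start within the block, and the starts of SFT2D1-205 and SFT2D1-206 lay in regions of all 3 lists.

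The 8 lost regions at the near end of SFT2D1 (chr6:166324944-166325953, 1010 bp) included a stretch of tandem repeat, which is shown because 4 of them fell on it. The copies run chr6:166325779-166325866 and chr6:166325867-166325954 on the plus strand, with NlaIII sites in capitals.
copy 1: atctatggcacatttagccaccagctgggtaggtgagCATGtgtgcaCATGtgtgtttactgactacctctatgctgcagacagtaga
copy 2: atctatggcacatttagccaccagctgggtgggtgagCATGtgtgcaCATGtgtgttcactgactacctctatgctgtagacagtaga
They matched at 85 of 88 positions (96.6%), against 60.2% for the 88 bases before copy 1 set against it. Both site regions of copy 1 and the first of copy 2 were listed in H358 alone, and the second of copy 2, 43 bp long, in H358 and A549. The authors kept reads of 30 bp that aligned to 1 place, and few positions in these copies could tell the copies apart. The copies also hold no GATC, the site of DpnII, the second enzyme of the assay. The fragments between their NlaIII sites thus lay between sites of the same enzyme, and the authors dropped such fragments. How far either point bears on the difference between lines was not tested.

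The MPC1 block (chr6:166374557-166390781, 16.2 kb) was the largest, with 70 pCREs, and the lines were most alike there. H358 listed all 70, A549 61 and H460 54, and all 54 of the H460 regions were in all 3 lists. The stretch of 54 regions in all lists (13333 bp) was the longest shared run of the window. All 3 lines began at the same site, position 166374557, 205.3 kb from the viewpoint, and ran without a gap. They ended at different sites, H460 at 166387889 (218.7 kb), A549 at 166388879 (219.7 kb) and H358 at 166390781 (221.6 kb). The 16 regions past the H460 end were lost (2892 bp, the longest lost run), with 7 in H358 and A549 and 9 in H358 alone. The start of ENSG00000280057, a gene still to be experimentally checked in the annotation, lay in the part held by H358 and A549, 0.2 kb past the nearest H460 region.

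MPC1 itself was listed alike in the 3 lines. Of its 64 site regions by midpoint the same 28 (43.8%, 32.3 to 55.9) were in each list. Together with the region over the gene's start, whose midpoint lies outside the gene, they covered 46.7% of it in each line. With that region the listed stretch reached from within intron 1 through exon 1 to the promoter. Exons 2 to 5, toward the 3′ end, were in no list. The canonical start of MPC1 (position 166382940, 213.7 kb), the start of MPC1-205 and that of MPC1-DT (position 166383189) lay in 1 region, chr6:166382843-166383474, of 632 bp with 75.5% G and C and 76 CpG, listed in every line. MPC1-DT was covered whole in all 3. An MPC1 transcript with an internal start, MPC1-202, started in a region that was in no list, 4.2 kb from the block.

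The intergenic block (chr6:166401979-166404068, 2.1 kb, 232.8 to 234.9 kb from the viewpoint) lay between MPC1-DT and RPS6KA2 and overlapped no annotated gene. A549 listed all 15 regions, H460 the first 14 and H358 none. The last, chr6:166404030-166404068, was in A549 alone and was the last member of the window. Its midpoint lay 5.31 kb inside the boundary, and the first listed region beyond, chr6:166414313-166414452, also in A549 alone, lay 5.02 kb outside. H358, which listed the most regions in the window as a whole, therefore had none in its last 18.6 kb.

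The blocks were separated by stretches in which no line had a region. The longest, 36.9 kb with 171 site regions, ran from 168.5 to 205.3 kb and held the start of SFT2D1, all of ENSG00000286760 and the 3′ part of MPC1. The others were 9.8 kb with 45 site regions between the PRR18 and SFT2D1 blocks, 11.2 kb with 58 between the MPC1 and intergenic blocks, and 10.2 kb with 59 that began after the intergenic block and ran past the boundary into RPS6KA2. Between SFT2D1 and MPC1, 0 of 116 site regions were listed in any line, which allows a share of up to 3.21% by the Wilson interval. The plot of shares by part of the locus shows these stretches beside the genes. In the 50 site regions from PRR18 to SFT2D1 the lines were farthest apart, at 52.0% in H358 (38.5 to 65.2), 34.0% in H460 (22.4 to 47.8) and 4.00% in A549 (1.10 to 13.5). In the SFT2D1 gene 53.5% of 99 were listed in H358 (43.8 to 63.0), 51.5% in H460 (41.8 to 61.1) and 33.3% in A549 (24.8 to 43.1). These intervals treat neighbouring regions as independent, so whether they overlap is no test between lines.

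**Figure D3:**
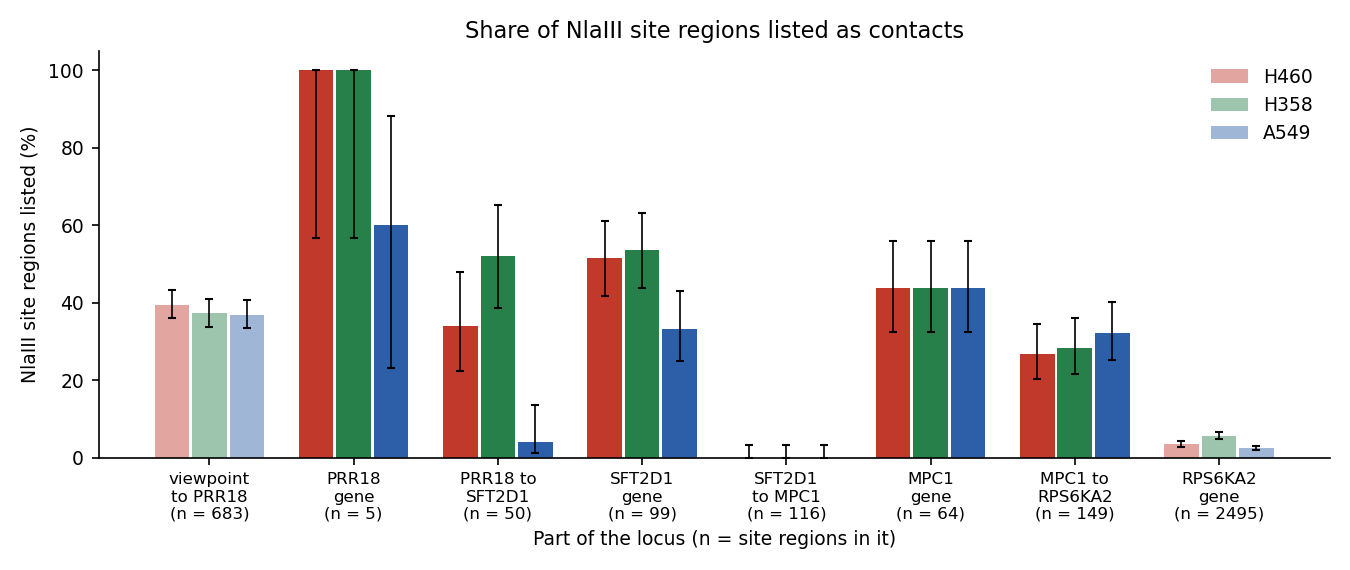
Percent of NlaIII site regions listed (y axis) in H460, H358 and A549 by part of the locus (x axis, n is the number of site regions), with 95% Wilson intervals. Pale bars are the neighbouring stretches outside the window. The 3 lines are equal at MPC1 and 0 between SFT2D1 and MPC1.

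By annotation at the midpoint, 83 of the 175 pCREs (47.4%) were in introns of protein-coding genes, 60 (34.3%) were intergenic and 19 (10.9%) were in introns of lncRNA genes. Another 7 were in non-coding exons, 4 in untranslated sequence (of 6 such site regions in the window) and 2 in coding exons (of 5). The intron and intergenic counts are not set here against such totals, so no preference can be read from them. The 60 intergenic regions were the only kind listed most often in A549, with 48, against 43 in H460 and 45 in H358. Of the 19 in lncRNA introns, 19 were in H358, 10 in H460 and 0 in A549. A promoter was taken as 1000 bp before to 100 bp after any annotated start of a protein-coding or lncRNA gene, which leaves out the starts of HNRNPA1P49 and ENSG00000280057. By this rule 21 pCREs lay at a promoter, 18 in each line and 15 in all 3. They were 21 of 32 promoter site regions in the window (65.6%), where 36.2% of all site regions were listed in any line. Within 1 Mb 37 of 338 promoter site regions (10.9%) were listed in any line, against 12.3% of all 9783. In A549, 3, 6 and 3 of its 18 came from the internal starts of SFT2D1-203, SFT2D1-206 and SFT2D1-205. In H460 and in H358 these numbers were 0, 6 and 3. None of the 21 was gained, 3 were lost and 18 were shared. The 3 lost ones were in A549 alone and lay before the internal start of SFT2D1-203. The number at a promoter turned on its definition, with 43 for 2000 bp before to 500 bp after, 13 for 600 bp before, and 9 with canonical transcripts alone.

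In G and C content the listed site regions lay close to the unlisted ones of the same window. The median was 43.7% (quartiles 37.1 to 50.3) over the 175 members and 45.2% (37.5 to 52.1) over the 308 unlisted site regions, and with all bases pooled 45.1% and 44.3%, so the order of the groups depends on the summary. CpG were more frequent in members, at 21.4 per kb against 14.0. The 5 members with the most CpG, 2 in PRR18 and 3 at the 5′ end of MPC1, held 350 of the 874 CpG in members. The plot of G and C content shows these regions at the PRR18 and MPC1 starts above the rest, and the site regions at the SFT2D1 start at a like height but unlisted. The site region over the SFT2D1 start had 70.7% G and C and 19 CpG.

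**Figure D4:**
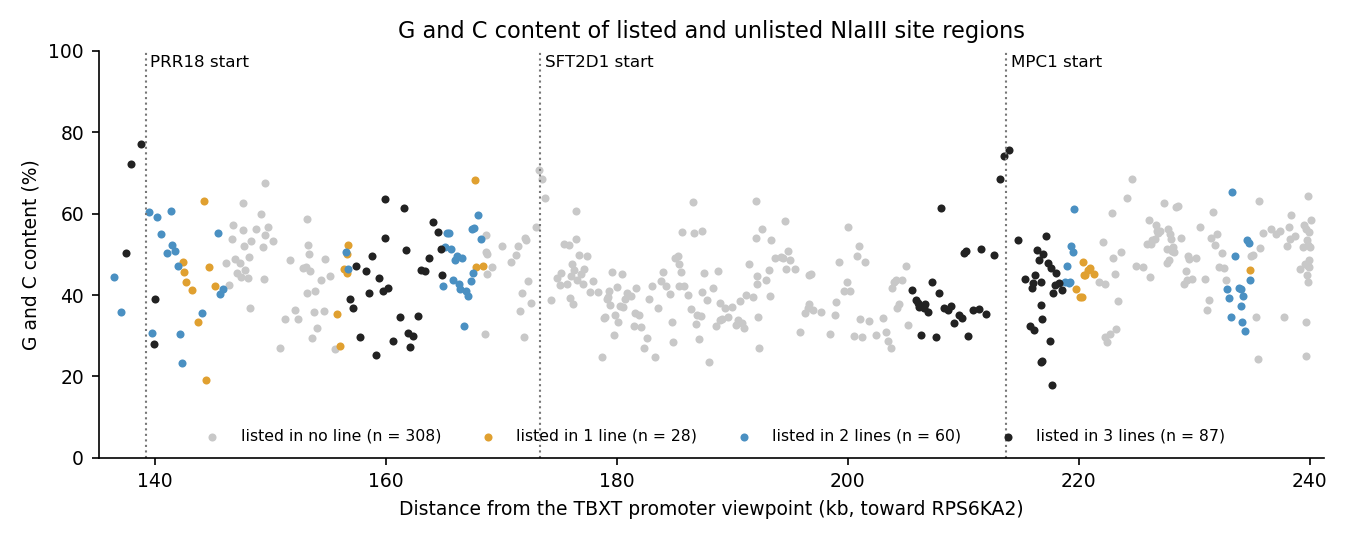
G and C content (y axis, %) of each of the 483 NlaIII site regions of the window against distance from the viewpoint in kb, coloured by how many lines list it. Dotted lines mark the canonical starts of the 3 protein-coding genes, with listed regions over 70% at PRR18 and MPC1 and unlisted ones near 70.7% at SFT2D1.

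Members were longer than unlisted site regions, with a median of 191 bp against 163 bp, and the 87 in all 3 lists had a median of 253 bp. The authors dropped fragments between sites of the same enzyme and fragments under 40 bp. A kept fragment between NlaIII sites thus held a DpnII site and was at least 40 bp long. By the reference sequence 117 of the 175 members (66.9%) had at least 1 adjoining fragment that met both conditions, against 169 of 308 unlisted (54.9%). For regions in all 3 lists this was 80.5%, and for the others 53.4%. The other 58 members (33.1%) had no such fragment on either side. In the intergenic block this was so for 11 of 15 (73.3%), and in the MPC1 block for 18 of 70 (25.7%). By class, 1 of the 3 gained regions (33.3%) had such a fragment, against 64.7% of the 34 lost and 68.1% of the 138 shared. Over the sites with a fragment that met both conditions, the share listed was 33.2% in H460, 38.1% in H358 and 28.3% in A549.

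Motifs were searched on both strands. The T-box half-site AGGTGTGA was in 1 member (0.571%), in 1.30% of unlisted site regions of the window and in 1.47% of all site regions within 1 Mb. The CTCF core had 1 match in the window, on the minus strand at chr6:166400990-166401001, in a region that was in no list, 1.0 kb before the intergenic block. Of all 9783 site regions within 1 Mb, only 7 (0.0716%) held this form of 12 letters, so its lack in the 175 members tells little. ATACACA was in 5.71% of members, 5.52% of unlisted and 5.21% of all site regions, and TCATCA in 10.3%, 9.74% and 12.2%. A match describes letters in the reference and is no measure of binding.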

How the data were processed

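The lists come from 4C-seq with the TBXT promoter as viewpoint. Reads were trimmed by the authors to 30 bp and aligned with Bowtie 1.2.2 to NlaIII and DpnII fragments of hg38, with reads that aligned to 1 place kept. Fragments between sites of the same enzyme, under 40 bp or within 5 kb of the viewpoint were removed. A running mean over 30 fragments was taken, and fragments were called with peakC and a local coverage score where both replicates had them. The deposited values are start and end positions in bp, with no count or score. Header lines were dropped (1 in the H358 list, 1 in the A549 list).

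A region counted as held by several lines when its start and end were the same in their lists. Site regions were built from every NlaIII site of hg38 (sites at most 5 bp apart merged) with the DNA up to the middle of each adjoining fragment. Stretches join regions at most 40 bp apart. Distances are from the NlaIII site at which the viewpoint primer ends (position 166169210). Genes, exons and starts were from GENCODE 44. Printed sequence is that of the hg38 reference. The genes named are those with an exon in the window and the 3′ end of RPS6KA2, and the regions named are those at promoters, in coding or untranslated exons, in the 3 longest stretches of each class, in the longest empty stretches and at the boundaries. The sequences of gained regions and of the tandem copies, HNRNPA1P49 and ENSG00000280057 were added after their values were seen. The sequences of 1 other gained region and of a motif match are not reported here. The members and lists were chosen with earlier results of these data known. With 1 list per line no test was run. Joining and classes were tested on simulated data. Python 3.11.15, numpy 2.4.6 and scipy 1.17.1 were used.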

Additional observations from a re-analysis of the deposited data

How the results depend on the processing

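Of 51 alternative values, 35 stayed within 1.5 times the reported count, within the 95% interval of the reported share or within 1 SD of the G and C content. With regions joined at 40 bp, the window held 6 stretches in H460, 4 in H358 and 6 in A549, in place of 141, 154 and 114 regions. Counting a region within 500 bp of another line's region as held left 0 gained and 14 lost. Without the H358 list 40 of 154 were gained and 13 lost, and without the A549 list 17 of 171 were gained. By base pairs, 57.9% of the listed DNA was in all 3 lists, and H358 covered 36.3% of the window. Among sites with a fragment of 40 bp or more that holds a DpnII site, H460 listed 33.2%, H358 38.1% and A549 28.3%. Promoters held 43 regions at 2000 bp before to 500 bp after a start, 13 at 600 bp before, and 9 with canonical transcripts alone (protein-coding and lncRNA genes throughout). Coding exons held 9 regions by any overlap in place of the midpoint. No paired analysis was possible because both replicates of a line were pooled in 1 list, and for the same reason no replicate could be left out. The depth of the libraries is unknown, so a region missing from a list cannot be told from one just under the calling threshold.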
